A study of Mus musculus with 3 samples.

Results

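MS4A genes encode small proteins that cross the membrane several times, and the family includes the CD20 antigen of B cells and the beta chain of the high-affinity IgE receptor of mast cells. The proteins have no known enzyme activity and are described as partners of other surface receptors, in lipid-rich patches of the plasma membrane or in endosomes. In macrophages of human and mouse they are known as markers of maturation, and human variants near MS4A4A and MS4A6A are linked to the level of soluble TREM2, a lipid-sensing receptor of microglia and macrophages. The genes described here are Ms4a1, Ms4a4a, Ms4a4b, Ms4a4c, Ms4a6b, Ms4a6c, Ms4a6d, Ms4a7 and Ms4a14, a fixed list of 9 genes found by symbol among 55536 annotated genes. The annotation holds 10 further Ms4a genes, which served as the surroundings of the 9.

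Polyadenylated RNA came from primary macrophages that were derived from C57BL/6J bone marrow. There was 1 group of 3 libraries, replicates 1, 2 and 3, all labelled as lipid A at 100 ng/ml for 0 minutes, that is, cells at the start of a course with the lipid part of bacterial endotoxin. No genotype other than the strain, no sex and no age were recorded. Each library had its own biosample and all 3 carried the same donor record, so the spread between libraries may be technical or biological. No contrast could be tested within 1 group, and all values given are descriptions. The gene tables held 27946070, 29779410 and 53447437 counts in replicates 1, 2 and 3. All 10 macrophage markers examined, among them Adgre1 (the F4/80 antigen) and Csf1r (the receptor for the macrophage growth factor), were detected, which here means a level of at least 1 TPM in each library (TPM, transcript abundance corrected for length and scaled to the same sum in each library). In a bulk sample, fewer cells of a type and less RNA per cell cannot be told apart.

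Of the 9 members, 8 were detected, against 19.0% of all annotated genes and 44.8% of protein-coding genes. The list was chosen with earlier results of these data known, and none of the other annotated Ms4a genes was detected. Over all 19 annotated Ms4a genes the same 8 were detected, so the share among the members depends on the choice of list. Ms4a7, known in human and mouse as a marker of mature macrophages, was the most abundant. It stood at 1019, 1503 and 845.5 TPM in replicates 1, 2 and 3 (mean 1122 ± 341 TPM, SD, n = 3), which placed it at rank 108, 70 and 107 among all genes. Within each library it was also 2.42, 2.30 and 2.23 times the level of Ms4a6c, the next member, and these ratios varied far less than the levels themselves. Ms4a7 and Ms4a6c did not overlap in their ranges.

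The next 4 members had means between 204 and 484.5 TPM. Ms4a6c, a mouse gene of the Ms4a6 branch, was at 421, 654 and 379 TPM (mean 484.5 ± 148). Ms4a4a, whose protein has been described as a partner of the fungal receptor dectin-1 in macrophages, was at 203, 672 and 380.0 TPM (mean 418 ± 237). Replicate 2 was the highest library for both. Ms4a6d, a mouse gene reported in macrophage activation, was at 393, 375 and 261 TPM (mean 343 ± 71.3). Ms4a6b, known in mouse also from T cells, was at 146, 341 and 126 TPM (mean 204 ± 119), and without replicate 2 its mean was 136 TPM. Among these 4 the ranges of neighbours in the order overlapped, and Ms4a6c exceeded Ms4a4a in 1 of 3 libraries and Ms4a4a exceeded Ms4a6d in 2 of 3. The outer ones, Ms4a6c and Ms4a6b, did not overlap. Ms4a6d was above Ms4a6b in every library, by 2.70, 1.10 and 2.07 times, although in the kallisto-format table, a second quantification of the same reads, the ratios were 2.01, 0.882 and 1.98.

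Below these came Ms4a4c and Ms4a14. Ms4a4c, a mouse paralog of Ms4a4b, was at 35.5, 154 and 48.8 TPM (mean 79.5 ± 65.0), and without replicate 2 its mean was 42.2 TPM. Ms4a14, which encodes a far longer protein than its relatives, was at 28.7, 58.9 and 71.4 TPM (mean 53.0 ± 21.96). These neighbours changed places, Ms4a4c being the higher in 2 of 3 libraries. That order rests on a short transcript of Ms4a4c described below. The full-length coding transcript of Ms4a4c alone, at 13.1, 45.4 and 17.97 TPM, was below Ms4a14 in every library. Ms4a4b, best known from mouse T cells, was low at 1.64, 3.49 and 2.64 TPM (mean 2.59 ± 0.926), and its range lay clear of that of Ms4a14 above it. Its 35, 74.1 and 65 counts correspond to 1.25, 2.49 and 1.22 CPM, counts scaled to a common library total, with exact Poisson intervals at 95% of 0.872 to 1.74, 1.95 to 3.12 and 0.939 to 1.55, so the interval of replicate 2 lay above those of the others. Such intervals cover counting error only. Ms4a1, which encodes CD20, was at 0.06, 0.02 and 0.05 TPM and had 3, 1 and 6 counts, around the limit of 3 counts that a count of 0 allows.

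**Figure D1:**
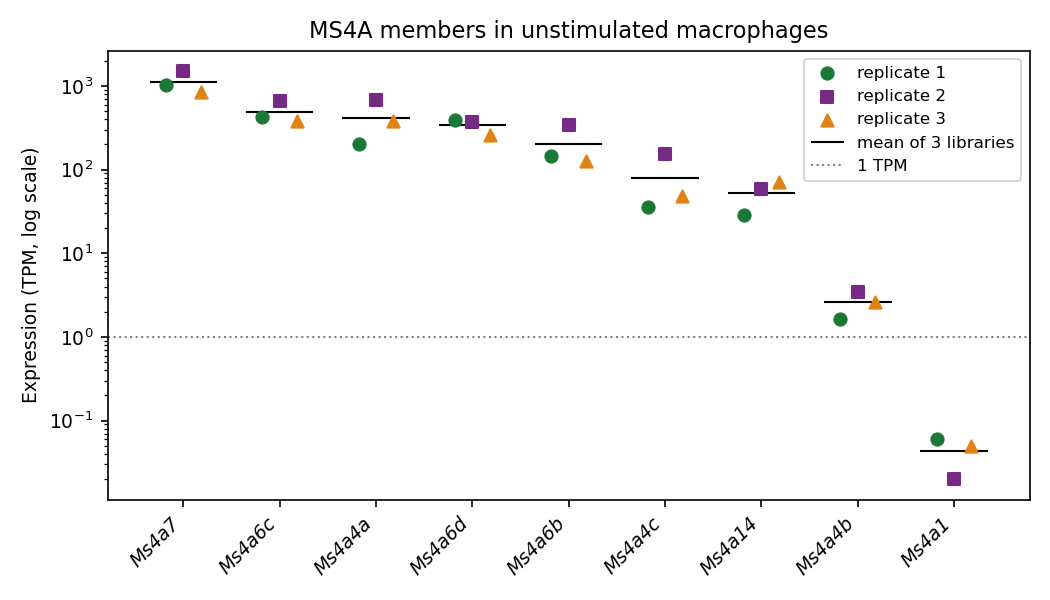
Level of each of the 9 members (TPM, log scale) in replicates 1, 2 and 3, with a bar at the mean and a dotted line at 1 TPM. Ms4a7 leads at a mean of 1122 TPM, 4 members follow between 204 and 484.5 TPM, and Ms4a1 lies far below the line.

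Summed over the 9 members, the family reached 2247, 3760 and 2115 TPM in replicates 1, 2 and 3. Ms4a7 alone held 45.3, 40.0 and 39.95% of the TPM of all Ms4a genes (mean 41.75 ± 3.10%, n = 3). Ms4a6c held a nearly constant 18.01 ± 0.679%. The share of Ms4a4a varied most in absolute terms, at 9.02% in replicate 1 against 17.9 and 17.95% in replicates 2 and 3. Together the 4 highest members made up 90.6, 85.2 and 88.2%.

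The genes sit in one cluster on mouse chromosome 19 (mm10), from 10962293 to 11640851, a span of 678.6 kb with 19 annotated Ms4a genes. All 8 detected members fell in one stretch of 303.6 kb, from Ms4a14 (11301249 to 11314454, minus strand) to Ms4a6d (11586604 to 11604849, minus strand). Between them lie Ms4a7 (11321039 to 11336146, minus strand), Ms4a4a (11375523 to 11392790), Ms4a4c (11404770 to 11427246), Ms4a4b (11443553 to 11467055), Ms4a6c (11469366 to 11482192) and Ms4a6b (11516512 to 11531256), all on the plus strand from Ms4a4a on. Ms4a1 (11249675 to 11266241, minus strand) lies outside the stretch. Of the 9 Ms4a genes inside the stretch, Ms4a4d was the exception, with 0, 0 and 1 count.

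Beyond that stretch the family was near 0. The 10 Ms4a genes that are not members summed to 0.37, 0.06 and 1.19 TPM. Of these 5 had no count in any gene table, namely Ms4a10, Ms4a12, Ms4a13, Ms4a15 and Ms4a18, although the kallisto-format table gave Ms4a12 an estimated 3.80, 13.0 and 41.8 counts. Ms4a2, the beta chain of the IgE receptor, had 1, 0 and 11 counts. Ms4a3, known from granulocyte and monocyte progenitors, had 2, 0 and 17 counts, and Ms4a8a, reported in alternatively activated mouse macrophages, had 1, 1 and 15 counts. All 3 were highest in replicate 3, the most deeply sequenced library and the one with the highest sum of neutrophil markers, at 172, 36.3 and 338 TPM in replicates 1, 2 and 3. Scaled to the library total, replicate 3 was still highest, at 0.206 CPM for Ms4a2, 0.318 CPM for Ms4a3 and 0.281 CPM for Ms4a8a. Replicates 1 and 2 were at 0.0358 and 0 CPM, 0.0716 and 0 CPM, and 0.0358 and 0.0336 CPM. The part of depth and of other cells in these counts was not tested. Ms4a5 had 1, 0 and 0 counts. The genes annotated as 1700017D01Rik and 1700025F22Rik, named Ms4a20 and Ms4a19 by RefSeq, had no count in the gene tables.

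Among the 16 other genes within the cluster 3 were detected, a share near the 19.0% of all annotated genes. AW112010, a long noncoding RNA, was at 20.15, 134 and 24.9 TPM, so that replicate 2 stood far above the others. BE692007, an antisense transcript of the Ms4a6c locus, was at 13.0, 23.6 and 14.1 TPM. Gm8369, a gene between Ms4a6c and Ms4a6b, was at 1.37, 4.87 and 1.67 TPM. All 3 were thus highest in replicate 2 on the TPM scale, as were 40.4% of all genes kept by a filter on low counts. Gm8369 rests on 26, 86 and 76 counts, and BE692007 overlaps exons of Ms4a6c, as described below. The nearest protein-coding genes outside the cluster that were detected, Ccdc86 on one side and Mrpl16 on the other, averaged 20.6 ± 9.24 and 26.2 ± 2.83 TPM (SD, n = 3).

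**Figure D2:**
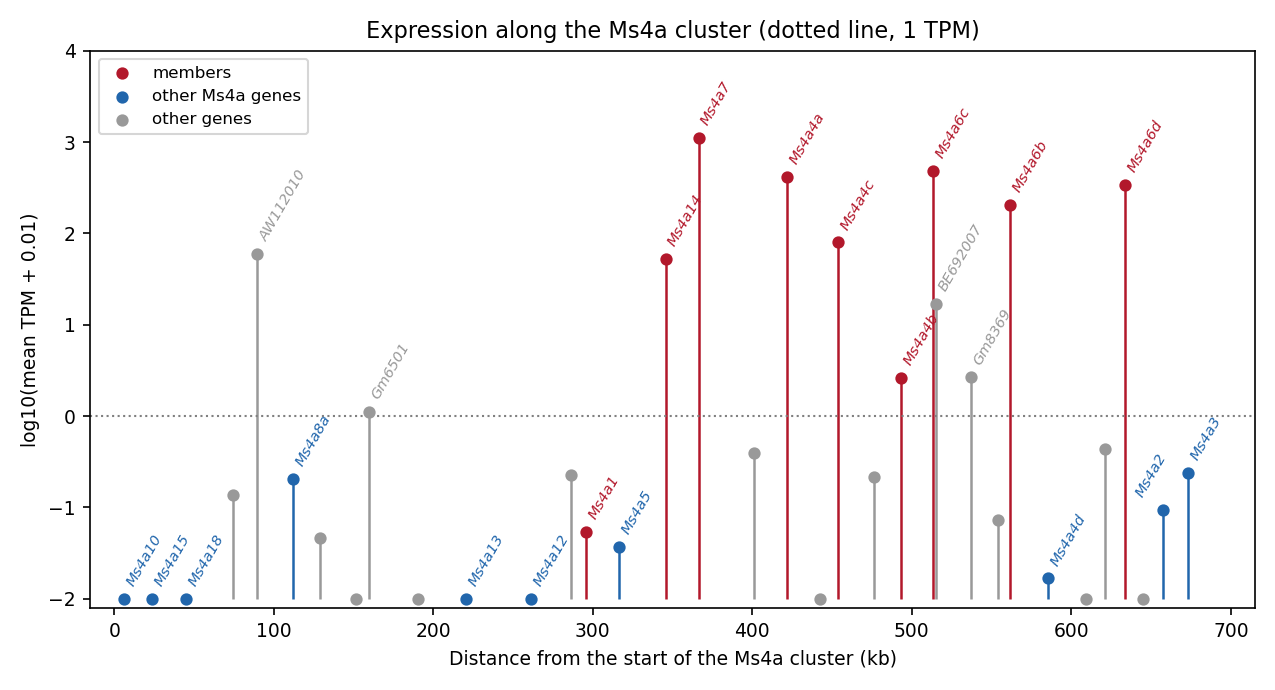
Mean level over 3 libraries, as log10(TPM + 0.01), against distance in kb from the start of the Ms4a cluster, for members, other Ms4a genes and other genes. The 8 members above the dotted line at 1 TPM fall in one stretch of 303.6 kb, with Ms4a4d the only Ms4a gene below the line inside it.

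Coding sequences from GENCODE M21 separated the members into branches. Over 28 pairs of 8 members (Ms4a14 was left out, since its coding sequence of 3699 bases is much longer than the 654 to 876 bases of the others), identity over aligned bases ranged from 59.5 to 91.8% with a median of 61.6%. Ms4a4c and Ms4a4b were the closest pair at 91.8%. The Ms4a6 branch followed, with 85.3% between Ms4a6c and Ms4a6b, 81.3% between Ms4a6d and Ms4a6b, and 79.1% between Ms4a6c and Ms4a6d. Ms4a4a stood further from its branch, at 68.4% to Ms4a4c and 67.1% to Ms4a4b. These likenesses bear on the counts, because reads from identical stretches must be divided by the authors' estimate. Of the 31-base words in its annotated transcripts, Ms4a6c shared 21.9% with other genes, Ms4a4c 17.1%, Ms4a6d 8.11%, Ms4a6b 7.84% and Ms4a4b 5.2%, while Ms4a4a and Ms4a14 shared none. These shares count words found in any other gene, not only in relatives. Of the 442 shared words of Ms4a6c, 281 occurred in Ms4a6b and 104 in Prdm11. Of the 299 shared words of Ms4a4c, 227 occurred in Ms4a4b.

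The closest pair differed widely in level. In every library Ms4a4c exceeded Ms4a4b, by 21.7, 44.2 and 18.5 times on the TPM scale of the gene table, and by 16.3, 18.4 and 11.05 times in the kallisto-format table. Short or noncoding forms, described below, hold most of the TPM of both genes. Their coding transcripts Ms4a4c-201 and Ms4a4b-201 were at 13.1, 45.4 and 17.97 TPM and at 0.27, 0.58 and 0.14 TPM. The upstream DNA of the pair is alike as well, and the 250 bases before each RefSeq start are shown to let this be seen. Capitals mark bases that are identical in the best local alignment of the pair (114 bases, with 13 mismatches and 1 gap base), on the plus strand of GRCm38.p6, at chr19:11407411-11407660 for Ms4a4c and chr19:11443308-11443557 for Ms4a4b.
Ms4a4c: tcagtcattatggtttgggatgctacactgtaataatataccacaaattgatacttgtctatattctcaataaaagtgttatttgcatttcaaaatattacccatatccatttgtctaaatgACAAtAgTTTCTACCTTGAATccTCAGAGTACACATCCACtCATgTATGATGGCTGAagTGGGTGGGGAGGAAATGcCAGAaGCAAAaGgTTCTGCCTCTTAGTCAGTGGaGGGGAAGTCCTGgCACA
Ms4a4b: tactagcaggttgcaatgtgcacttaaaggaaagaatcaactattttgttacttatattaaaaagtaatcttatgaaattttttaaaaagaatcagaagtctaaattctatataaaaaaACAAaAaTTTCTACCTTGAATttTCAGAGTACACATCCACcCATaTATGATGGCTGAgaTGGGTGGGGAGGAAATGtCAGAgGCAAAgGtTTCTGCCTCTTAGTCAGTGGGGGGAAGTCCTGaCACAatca
In both genes the capitals cover the part of the window next to the start, and the farther bases do not align. The aligned stretch runs from -128 to -1 in Ms4a4c and from -131 to -5 in Ms4a4b, counted from the start, with an identity of 89.8%. Ms4a4b has the letters TATAAA at -140, just outside it, and Ms4a4c has none in its window.

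The corresponding pair of the Ms4a6 branch differed less. Ms4a6c exceeded Ms4a6b by 2.89, 1.92 and 3.00 times in replicates 1, 2 and 3. Their upstream DNA also aligned, over 170 bases with 89.4% identity (152 identical bases, 18 mismatches and 12 gap bases), at chr19:11469118-11469367 for Ms4a6c and chr19:11518309-11518558 for Ms4a6b, both on the plus strand. The capitals again mark identical bases.
Ms4a6c: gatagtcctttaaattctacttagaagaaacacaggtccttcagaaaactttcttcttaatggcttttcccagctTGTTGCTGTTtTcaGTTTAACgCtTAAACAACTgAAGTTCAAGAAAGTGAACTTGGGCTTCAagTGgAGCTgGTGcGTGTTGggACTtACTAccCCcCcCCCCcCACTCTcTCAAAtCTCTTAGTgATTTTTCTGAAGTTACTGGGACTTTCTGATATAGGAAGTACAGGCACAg
Ms4a6b: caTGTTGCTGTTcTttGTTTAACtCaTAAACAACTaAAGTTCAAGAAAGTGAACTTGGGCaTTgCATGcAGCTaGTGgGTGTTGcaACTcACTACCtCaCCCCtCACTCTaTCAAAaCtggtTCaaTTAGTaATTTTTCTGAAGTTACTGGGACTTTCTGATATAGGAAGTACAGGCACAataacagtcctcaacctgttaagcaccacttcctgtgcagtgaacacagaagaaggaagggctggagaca
Here the same stretch lies at different distances from the start, at -175 to -2 in Ms4a6c and at -248 to -71 in Ms4a6b. Its end holds the letters AGGAAGT, the core to which PU.1 and other ETS factors bind, at -17 in Ms4a6c and at -86 in Ms4a6b. A further copy on the opposite strand lies at -43 in Ms4a6b, outside the aligned stretch. Spi1, the gene of PU.1, which directs myeloid development, was itself at 230, 314 and 311 TPM.

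RefSeq promoter windows, of 250 bases before to 50 bases after a start, were found for 7 of 9 members. Each motif was searched on both strands, and a match is a run of letters, not a site of binding. AGGAAGT occurred in 2 of the 7 members, Ms4a6b and Ms4a6c, and in 9.35% of the 32851 windows of the table. TGANTCA, the AP-1 letters, occurred in Ms4a14 at -32, in the second window of Ms4a7 at -81 and in Ms4a4b at 22 after the start, and in 7.81% of all windows. The first window of Ms4a7, at another start, held none of them. TATAAA occurred in Ms4a14 and Ms4a4b and in 13.6% of all windows. Letters of the interferon-stimulated response element (3.44% of all windows), the gamma-activated site (TTCNNNGAA, 8.3%), C/EBP (TTGCNNAA, 10.8%) and kappa-B (GGGNNTTCC, 5.82%) occurred in none of the 7. That these letters are missing says nothing of factors at other positions.

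Transcript tables showed which forms carried each member, and for short forms the scale mattered. TPM counts molecules, so a short transcript weighs more by TPM than by its share of counts. For Ms4a4c, the transcript Ms4a4c-203, 361 bases long and annotated with an incomplete coding sequence, held 63.1, 69.9 and 62.5% of the TPM of the gene but only 12.0, 15.8 and 12.5% of its expected counts. The full-length coding transcript Ms4a4c-201, of 1723 bases, held 36.9, 29.5 and 36.8% of the TPM, or 13.1, 45.4 and 17.97 TPM, against 35.5, 154 and 48.8 TPM for the whole gene. Its highest library was again replicate 2, at 3.46 times the lowest.

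Ms4a4b showed the same dependence more strongly. Its only protein-coding transcript, Ms4a4b-201, held 16.4, 16.6 and 5.30% of the TPM, or 0.27, 0.58 and 0.14 TPM. Noncoding forms, mostly the retained intron Ms4a4b-207 of 550 bases, held the remaining 83.6, 83.4 and 94.7%. Ms4a4b-201 alone lay below 1 TPM in every library, so Ms4a4b counts as detected only with its noncoding forms. By expected counts the noncoding share was 36.9, 30.8 and 63.3%, on 35, 74.1 and 65 counts in all. These shares rest on few counts, and the kallisto-format table gave Ms4a4b-207 a mean share of 45.9% of TPM against 66.2% in the RSEM-format table.

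Coding forms held most of the TPM of the abundant members. Ms4a7-203 held 64.9, 58.0 and 64.8% of the TPM of Ms4a7 and the shorter coding form Ms4a7-202 held 32.3, 37.9 and 32.3%. Their coding sequences are 705 and 648 bases long. Ms4a6d-201 held over 99% of Ms4a6d in each library of the RSEM-format table (mean 99.6%). Ms4a4a and Ms4a14 have 1 annotated transcript each. Ms4a6c-201 held 73.8, 77.8 and 83.4% of the TPM of Ms4a6c, and the retained intron Ms4a6c-202, of 639 bases, held the rest. In counts that retained intron took 7.88, 6.43 and 4.68%. Ms4a6b was divided between the coding forms Ms4a6b-201, at 59.9, 58.7 and 51.5%, and Ms4a6b-205, at 31.2, 21.7 and 28.5%, which share a coding length of 735 bases. Its noncoding forms, mainly retained introns, held 8.87, 19.6 and 20% of the TPM, and 29.96, 36.7 and 21.1% in the kallisto-format table. In that table the retained intron Ms4a6b-202, of 429 bases, had a mean share of 24.9%, above the 18.45% of Ms4a6b-205, but was below it in replicate 3 (15.4 against 23.8%).

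**Figure D3:**
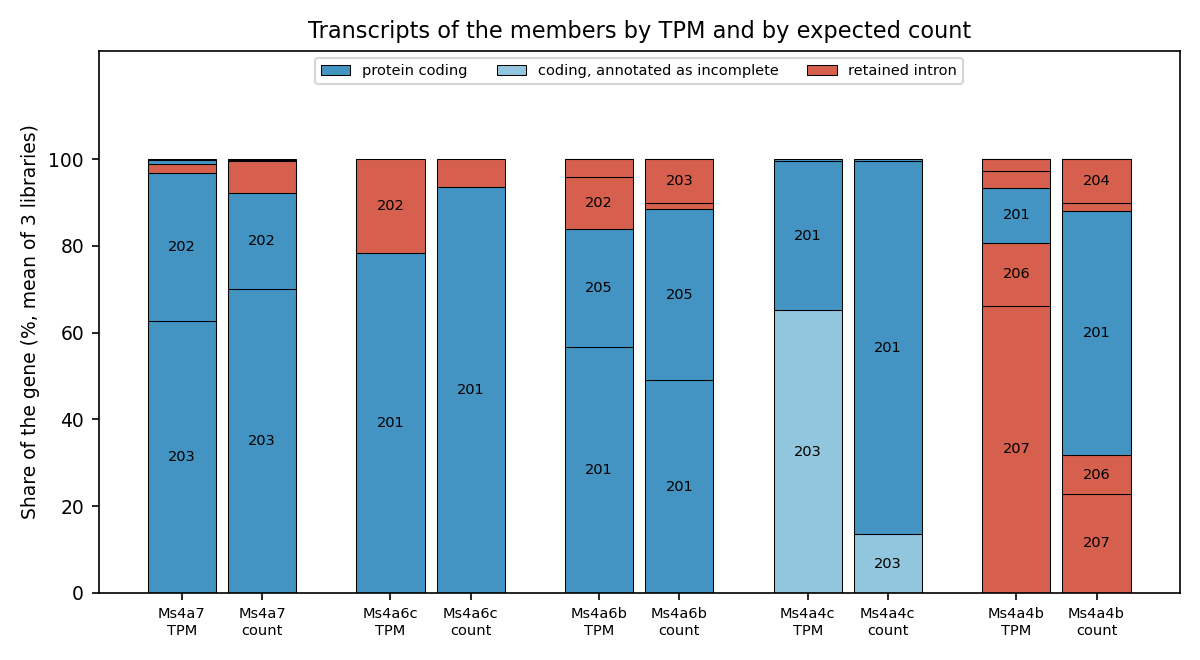
Share of each gene (percent, mean of 3 libraries) held by its transcripts in the RSEM-format table, by TPM on the left and by expected count on the right of each pair of bars, with transcript numbers on the larger segments. Ms4a4c-203 and Ms4a4b-207 fill most of their TPM bars and much less of their count bars.

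Strand adds a limit for Ms4a6c. Its exons share 1088 of 2050 bases with BE692007 on the opposite strand, and whether counting used strand is not given in the sources used here. Without strand, reads of the pair in that overlap cannot be told apart. Expected counts were 9837, 16932 and 20702 for Ms4a6c and 972, 1834 and 2248 for BE692007.

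The 2 quantifications differed little for most members. None of the 8 detected members differed over 1.5-fold in the same direction in every library between the kallisto-format and the RSEM-format tables, against 3.33% of 10548 genes. Ms4a4b came nearest, with a kallisto-format level of 2.42, 6.14 and 3.59 TPM and an RSEM-format level of 1.64, 3.49 and 2.64 TPM. Since the median gene stood at 0.754, 0.76 and 0.96 of its RSEM-format level in replicates 1, 2 and 3, the ratio of Ms4a4b relative to the median gene was 1.96, 2.31 and 1.42. For Ms4a7 it was 0.993, 0.961 and 0.932. For Ms4a4c it was 1.473, 0.963 and 0.847, a difference that changed direction between libraries.

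Most members were highest in the same library. On counts scaled by TMM, a normalization to the bulk of genes, 6 of 8 members kept by the filter on low counts were highest in replicate 2, against 32.3% of 11886 genes. In replicate 1, 7 of 8 were lowest, against 34.5% of genes. The median log2 ratio of the members to the geometric mean of both other libraries was -0.54, 0.71 and -0.14 in replicates 1, 2 and 3, against 0.00, 0.00 and 0.01 over all genes kept. The upper quartile of all genes kept was 0.41 in replicate 2.

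Single members departed from this to different degrees. Ms4a4c had log2 ratios of -1.32, 1.45 and -0.13, Ms4a4a of -1.48, 1.08 and 0.40, and Ms4a6b of -0.55, 1.04 and -0.50. Replicate 2 was thus the high library for each of these, while replicate 3 joined replicate 1 at the low end for Ms4a6b. Ms4a7 (-0.34, 0.50 and -0.15) and Ms4a6c (-0.49, 0.52 and -0.03) moved less, and Ms4a4b had -0.54, 0.90 and -0.36. The exceptions were Ms4a14, which was highest in replicate 3 (-1.33, 0.20 and 1.12), and Ms4a6d, which was highest in replicate 1 and nearly level (0.17, 0.04 and -0.21).

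The coefficient of variation of scaled counts ranged from 8.98% for Ms4a6d to 63.4% for Ms4a4c. Of the 500 genes nearest in abundance to each, 91.8% were more variable than Ms4a6d and 4.2% were more variable than Ms4a4c. Ms4a4a at 51.6%, Ms4a14 at 51.5% and Ms4a6b at 45.2% were also in the upper part, with 8.6, 10 and 13.8% of like genes above them. Ms4a7 at 21.1% and Ms4a6c at 23.3% were less variable than most, with 68.2 and 60% of like genes above them.

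Interferon-stimulated genes were also highest in replicate 2. This held for all 15 of the list, against 32.3% of all genes kept, with a median log2 ratio there of 1.73. The list was chosen with earlier results of these data known, and it summed to 1525, 4565 and 1430 TPM in replicates 1, 2 and 3. The relatives Tmem176a and Tmem176b, which resemble MS4A proteins in structure, were highest there too, at 9.32, 52.9 and 13.1 TPM and at 16.5, 103 and 35.3 TPM. Macrophage markers were split, with 4 of 10 highest in replicate 2, near the share of all genes, and a median of 0.13. Neutrophil markers were lowest in replicate 2, as given above. Of 10 monocyte markers 6 were detected, against 44.8% of protein-coding genes. In replicate 2, 3 of 10 were highest, near the share of all genes, and the median log2 ratio was -0.09. In replicate 3, 5 were highest, against 33% of all genes kept. The list summed to 53.4, 108 and 72.8 TPM, among them F13a1, at 10.1, 50.2 and 23.6 TPM, and Ly6c2, at 7.62, 6.70 and 13.6 TPM. The part of these other changes in the ratios of the members was not tested.

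**Figure D4:**
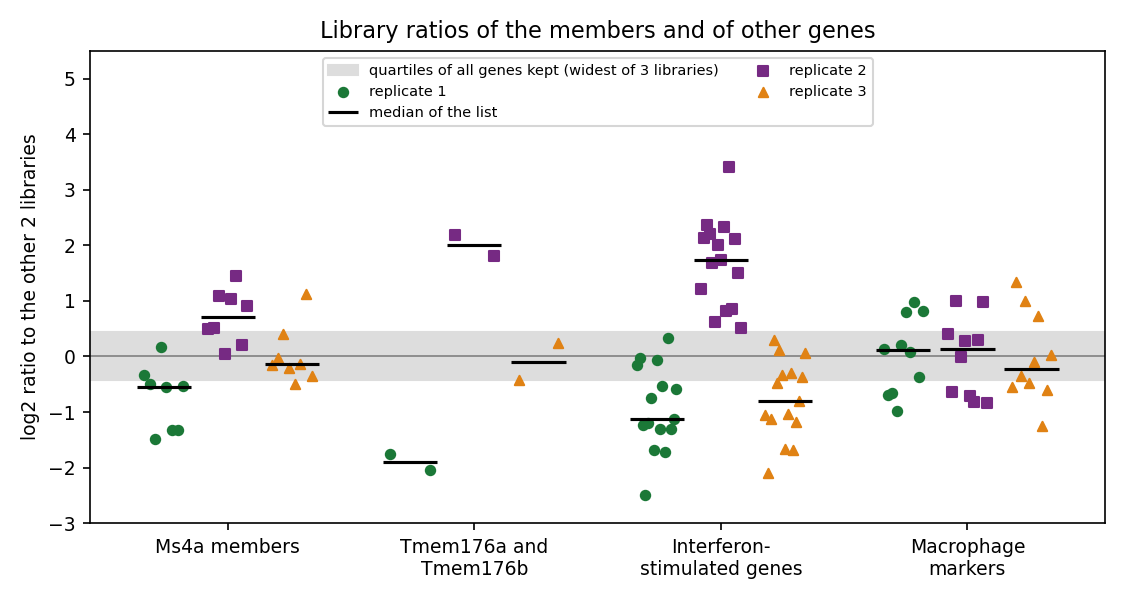
Log2 ratio of TMM-scaled counts in 1 library to the geometric mean of both others, for the 8 members kept, for Tmem176a and Tmem176b, for 15 interferon-stimulated genes and for 10 macrophage markers, with a bar at each median and a band for the quartiles of all genes. Members have medians of -0.54, 0.71 and -0.14 in replicates 1, 2 and 3, and the interferon-stimulated genes a median of 1.73 in replicate 2.

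Markers of other lineages were examined beside the members, with 44.8% of all protein-coding genes detected. Of 10 B cell markers 3 were detected, and the list summed to 15.3, 50.2 and 41.9 TPM. Those 3 were Cd22, Cd79b and Ighm, the last at 1.16, 27.9 and 15.7 TPM, whereas Pax5, the defining transcription factor of the lineage (0, 0.01 and 0.02 TPM), was at or near 0, as was Ms4a1. Of 10 T and NK cell markers 1 was detected, Cd28 at 97.9, 197 and 190 TPM. The T cell receptor genes Cd3e (0.2, 0 and 0.04 TPM) and Trac (0.33, 0 and 0.12 TPM) were near 0 beside the low level of Ms4a4b. Of 10 mast cell and basophil markers 0 were detected, and 3 of them had no count, beside the few counts of Ms4a2. Of 8 dendritic cell markers 1 was detected, and the list summed to 6.11, 8.81 and 7.82 TPM.

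Genes of proteins described as MS4A partners in human or mouse cells were abundant throughout. All 8 of that list, which was chosen with earlier results of these data known, were detected, against 44.8% of protein-coding genes. Trem2 was at 954, 954 and 653.5 TPM, and Tyrobp, the adaptor that signals for it, at 2984, 3631 and 1785 TPM. Clec7a, the gene of dectin-1, was at 178, 475 and 789 TPM, with replicate 3 the highest, whereas Ms4a4a was highest in replicate 2. Of the 8 partners 4 were highest in replicate 2, against 32.3% of all genes kept, with a median log2 ratio of 0.15. Of 8 regulators of monocyte and macrophage development, a list chosen likewise, 7 were detected and 6 were highest in replicate 2. Their median log2 ratio of 0.35 was below the upper quartile of all genes kept, which was 0.41. Irf8 was at 91.0, 179 and 133 TPM and Klf4, the lowest of the list, at 1.58, 1.12 and 0.73 TPM.

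Likeness of pattern was measured as the Euclidean distance between centred log2 scaled counts over the 3 libraries, among 6908 protein-coding genes with a mean of 10 TPM or more. With 3 libraries this measure leaves many genes alike, and it says nothing of shared function. Within the family Ms4a7 and Ms4a6c were the nearest at 0.13, and Ms4a4a and Ms4a4c came next at 0.44. For Ms4a4c only 20 genes lay within 0.2, with Slc26a11 and Notch2 nearest. For Ms4a4a 29 did, with Parp8 and Nupr1 nearest, and for Ms4a14 35 did, with Selplg and Snap23 nearest. Ms4a6b had 74 such genes, led by Slc25a37 and Dpp7. Commoner patterns belonged to Ms4a6c with 304 genes, led by H2-Ke6 and Klhdc3, to Ms4a7 with 328, led by Cryzl1 and Bbx, and to Ms4a6d with 623, led by Extl2 and Taok1.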

How the data were processed

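Genes and transcripts of 3 libraries were described. Per the file headers and the deposited lists, the authors made a gene table and a transcript table in the format of RSEM from alignments to the transcriptome, and a transcript table in the format of kallisto from the reads, with mm10 and the GENCODE annotation M21. The aligner, versions and strand setting were not given in the sources used here. Per the file headers, expected counts and estimated counts are the authors' estimates and need not be whole. TPM, per the file headers, are the authors' levels per length, scaled to the same sum in each library.

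Gene and kallisto-format sums were matched by gene identifier. Entries that name no gene, among them spike-in sequences with 0.131, 0.122 and 0.0843% of the counts of replicates 1, 2 and 3, were left out. Expected counts were rounded, filtered by filterByExpr and scaled by TMM in edgeR 4.0.16 (R 4.3.3), leaving 11886 genes; DESeq2 1.42.0 size factors were an alternative. Ratios used a prior count of 0.5 and were checked on simulated counts. Coding sequences and upstream windows were aligned with Biopython 1.88, the windows taken from RefSeq for GRCm38.p6. A design that named proteins was replaced by coding sequences, since protein sequences were not used here. No test was run, because there was 1 group. The members and lists were chosen with earlier results of these data known. Named are all members, the other Ms4a genes, Tmem176a and Tmem176b, genes within the cluster, genes needed to describe a list (values of 2 list genes are not reported here), and the 2 nearest patterns of each member with a mean of 10 TPM or more.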

Additional observations from a re-analysis of the deposited data

How the results depend on the processing

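Alternatives that leave all libraries in gave 59 values. Of these 53 moved by less than the spread between libraries or, for counts of members, by less than 1.5 times. That spread is a wide bound, so this count says little of how firm the values are. For Ms4a7, 872.8 TPM in the kallisto-format table against 1122 TPM lay within it. For the median ratio of members, the spread was that of the members' own library medians. The median ratio of members in replicate 2 kept its sign, and the levels, counts and shares cannot be negative. In the kallisto-format table the mean level of Ms4a6d was 264.8 TPM, against 343 TPM, and that of Ms4a4b 4.05 TPM, against 2.59 TPM. Posterior mean TPM gave 0.0867 TPM for Ms4a1, against 0.0433 TPM. Kallisto-format shares of the leading transcript were 45.9% for Ms4a4b, 57.8% for Ms4a1 and 98.6% for Ms4a6d, against 66.2, 100 and 99.6%. The causes were not tested. At 5 TPM, 7 members were detected. The median ratio of members in replicate 2 ranged from 0.48 with no filter on low counts to 0.71. With no filter 9 members entered, Ms4a1 among them, and the median over all genes was 0.24. The median ratio of members was 0.44 and 0.99 without replicate 1 and without replicate 3. Without replicate 2 this ratio cannot be formed. Without that library the mean of Ms4a6b was 136 TPM, against 204 TPM, and that of Ms4a4c 42.2 TPM, against 79.5 TPM. No paired analysis was possible because there was 1 group. Depth limits Ms4a1 and the genes with a few counts, and 3 libraries limit every SD.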
